A study of Arabidopsis thaliana with 30 samples.

Results

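Seedlings of Arabidopsis thaliana that lack either of its 2 ADA2 adaptor genes were compared, ada2a mutants against ada2b mutants, in 6 of the 30 messenger RNA libraries of a series on 9 mutants and the wild type. The comparison was defined by genotype and not by any measured value: all genes with a normalised value of at least 10 in at least 3 of the 30 libraries were taken, which was 21868 of the 32548 genes listed. Both mutants are labelled as homozygous (ada2a-/- and ada2b-/-), with 3 libraries each, and the values of gcn5-/- mutants and of the wild type Col-0, also 3 libraries each, are set beside them. Whole seedlings were harvested at 12 days after growth on Murashige and Skoog plates at 22 °C in 16 h light and 8 h dark, with no treatment. Alleles are not named in the labels, nor is it stated if replicate libraries stem from independent growths or from pooled plants, so each p-value is based on a spread between libraries that could be purely technical.

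GCN5 is a histone acetyltransferase that places acetyl groups on the tail of histone H3 at transcribed genes. It works with an ADA2 adaptor, which stimulates the enzyme and links it to the rest of a complex. In Arabidopsis ADA2B is the adaptor of the SAGA complex, and ADA2A is the adaptor of a plant complex that also holds SPC, ING1, SDRL and EAF6. Mutants of ADA2B are known as dwarf plants, whereas those of ADA2A have been described as much closer to the wild type.

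The results below turn on genes of light harvesting, chlorophyll synthesis, auxin signalling, wall loosening and root hairs, among others. The 250 bases before the gene start in RefSeq's annotation of TAIR10.1 are printed for 6 such genes, since these are the stretches in which the promoter motifs described further on were searched. The sequences are written 5′ to 3′ on the strand of the gene, and capitals mark the searched motifs. LHCB2.1 and LHCB2.3 encode light harvesting proteins of photosystem II, PORA a protochlorophyllide oxidoreductase, IAA6 an auxin repressor, TCH4 a touch-induced xyloglucan endotransglucosylase, and LRX1 a leucine-rich repeat extensin of the root hair wall.
LHCB2.1 (chr2:1824481-1824730, minus strand): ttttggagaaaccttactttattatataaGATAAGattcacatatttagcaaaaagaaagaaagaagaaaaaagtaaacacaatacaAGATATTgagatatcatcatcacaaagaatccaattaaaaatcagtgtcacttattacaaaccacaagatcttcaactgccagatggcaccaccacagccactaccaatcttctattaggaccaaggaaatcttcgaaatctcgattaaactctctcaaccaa
LHCB2.3 (chr3:10255656-10255905, plus strand): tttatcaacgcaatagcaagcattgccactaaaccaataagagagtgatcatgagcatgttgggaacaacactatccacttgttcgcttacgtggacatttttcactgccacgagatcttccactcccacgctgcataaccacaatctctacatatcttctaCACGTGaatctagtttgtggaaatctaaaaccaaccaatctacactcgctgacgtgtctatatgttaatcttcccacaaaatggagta
PORA (chr5:21992815-21993064, minus strand): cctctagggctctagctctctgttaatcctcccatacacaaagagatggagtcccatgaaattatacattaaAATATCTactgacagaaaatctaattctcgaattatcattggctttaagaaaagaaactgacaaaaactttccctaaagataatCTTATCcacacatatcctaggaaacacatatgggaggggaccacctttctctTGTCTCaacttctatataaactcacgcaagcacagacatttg
IAA6 (chr1:19673653-19673902, minus strand): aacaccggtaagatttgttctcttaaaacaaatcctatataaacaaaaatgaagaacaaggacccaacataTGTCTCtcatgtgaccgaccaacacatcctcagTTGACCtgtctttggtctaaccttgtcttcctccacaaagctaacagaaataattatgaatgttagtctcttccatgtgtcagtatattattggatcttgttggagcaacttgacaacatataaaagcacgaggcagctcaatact
TCH4 (chr5:23308681-23308930, minus strand): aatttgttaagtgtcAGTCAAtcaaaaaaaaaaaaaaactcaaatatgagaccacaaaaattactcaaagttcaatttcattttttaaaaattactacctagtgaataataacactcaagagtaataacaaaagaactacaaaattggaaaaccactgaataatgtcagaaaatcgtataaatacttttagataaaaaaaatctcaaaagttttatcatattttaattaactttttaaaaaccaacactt
LRX1 (chr1:4069742-4069991, plus strand): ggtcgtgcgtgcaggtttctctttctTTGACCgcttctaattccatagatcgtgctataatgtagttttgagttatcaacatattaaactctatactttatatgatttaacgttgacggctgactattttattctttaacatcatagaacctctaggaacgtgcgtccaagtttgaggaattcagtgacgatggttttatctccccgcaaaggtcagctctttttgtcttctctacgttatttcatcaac
The LHCB2.1 stretch holds an I-box at -221 and an evening element core at -163, counted as the first base of the match relative to the gene start. LHCB2.3 holds a G-box at -88, and PORA an evening element core at -178, an I-box at -94 and an auxin response element at -42. IAA6 holds an auxin response element at -179 and a W-box at -146, TCH4 a W-box at -235 and LRX1 a W-box at -224. A match describes letters only and not a bound site.

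The values are a signal normalised by the authors. No division by gene length is described, so values are compared between genotypes and not between genes. Log2 fold changes are of value + 1, ada2a minus ada2b, with the SE of the fit, and a gene was called at an adjusted p below 0.05 in limma across all tested genes. Column totals were 39487924 to 40275301 in ada2a, 30914000 to 32096820 in ada2b, 32623346 to 33352943 in gcn5 and 37686267 to 37796775 in Col-0. Pearson's r across genes was 0.9794 to 0.9829 between libraries of a mutant and 0.9144 to 0.9244 between ada2a and ada2b libraries. For several stress genes, such as TCH4, ERF4, ERF6 and LOX4, the third ada2b library was above the other ada2b libraries, as the values below show.

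Most genes separated the mutants. Of 21868 genes, 13932 were called (63.7%), 7322 of them higher in ada2a (33.5%) and 6610 lower (30.2%), with a median log2 fold change of 0.009 over all genes. The direction became uneven with size. At least 2-fold higher in ada2a were 3636 genes (16.6%) and at least 2-fold lower 1241 genes (5.67%). More than 4-fold, the counts were 1476 and 252, and more than 16-fold 222 and 20. These splits depend on the scale: when each library is divided by its column total, which shifts the median gene by -0.33, 4976 genes were called higher and 11065 lower, and the genes at least 2-fold apart became 2571 and 2832. For most lists whose counts that scale clearly moves, the counts with column totals follow those on the deposited scale. They are to be read beside 4976 higher and 11065 lower of 21868 genes and a median of -0.33. The shares on the deposited scale do not apply to them. Of the 508 genes with a mean of at least 10000 over all libraries, 151 were at least 2-fold higher in ada2a and 0 at least 2-fold lower. High values may reflect gene length as well as abundance.

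In whole seedlings, fewer cells of a type and less RNA per cell cannot be told apart. Of the root markers, 3 of 13 were higher and 5 lower in ada2a, and their summed value was 7456 to 8891 in ada2a, 6909 to 8329 in ada2b, 7037 to 8278 in gcn5 and 7299.8 to 8675 in Col-0. PHO1, one of the higher markers, carries the overlap of the mutants: without it, a choice made once the values had been seen, the other 12 sum to 4385 to 4920.5 in ada2a, 5574 to 6912 in ada2b, 5240.3 to 6214 in gcn5 and 4443 to 5579 in Col-0. Of the 7 markers of green shoot tissue, 7 were higher, with sums of 855555 to 914188 in ada2a, 269928 to 344161 in ada2b, 403147 to 429275 in gcn5 and 1002313 to 1071141 in Col-0. Of 5 seed markers, LEC1 and SESA1 were listed at 0 in all 6 libraries and OLEO1 in all 3 of ada2a, with 0, 0 and 7.47 in ada2b. FUS3 was higher in ada2a. CRA1 was at 3.65, 12.0 and 5.18 in ada2a against 0, 155 and 137 in ada2b and did not pass. Of 5 flower markers, SEP3 was higher and 0 were lower. Their sums were 271 to 321 in ada2a, 58.6 to 206 in ada2b, 120.1 to 161 in gcn5 and 265 to 306 in Col-0. The part that the makeup of the seedlings plays in any result was not tested.

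The mutated genes were examined before the rest. ADA2A (AT3G07740, TAIR10.1 chromosome 3, 2469783 to 2473095) stood at 16.0, 19.9 and 8.32 in ada2a libraries, against 633, 620.2 and 738 in ada2b libraries, with 589 ± 36.4 in Col-0 (mean ± SD, n = 3). All ada2a libraries lay far below those of ada2b and Col-0, a difference of -5.47 ± 0.21 (adjusted p = 2.8e-19), so the ada2a label was borne out by the transcript. ADA2B (AT4G16420, chromosome 4, 9262621 to 9266157) was at 1289.9, 1472 and 1274 in ada2a, against 996, 1040.4 and 1217 in ada2b, where Col-0 had 1500.5 ± 56.4. Its transcript was thus still plentiful in the ada2b libraries, and the difference of 0.31 ± 0.07 (adjusted p = 5.9e-04), which turned to -0.03 when each library is divided by its column total, checks that label only weakly.

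Of the 12 subunits of GCN5 complexes tested, ADA2B was higher in ada2a and 7 subunits were lower, ADA2A among them, with a median of -0.28. With column totals 0 were higher and 11 lower (median -0.63). The genes for SGF29, a SAGA reader of methylated histone H3, were lower in ada2a: SGF29a was at 342, 417 and 472 in ada2a against 680.1, 642 and 670.4 in ada2b (-0.71 ± 0.12, adjusted p = 5.9e-06), and SGF29b at 434, 362 and 324 against 582, 535 and 582 (-0.61 ± 0.13, adjusted p = 1.2e-04). TAF6B, a TBP-associated factor, was at 1460.3, 1251 and 1378 in ada2a against 1906, 2017 and 1996 in ada2b (-0.54 ± 0.08, adjusted p = 1.3e-06). GCN5 itself was at 521, 624 and 529 in ada2a against 760.5, 812 and 813 in ada2b (-0.51 ± 0.12, adjusted p = 3.1e-04). ING1 and TAF5 were lower too, at -0.35 ± 0.14 and -0.22 ± 0.08 (adjusted p = 0.0287 and 0.0132). For these genes the libraries of the mutants did not overlap, as was the case for 66.5% of all tested genes. UBP22, the deubiquitinase of SAGA, was at 621, 605 and 606 in ada2a against 657, 669.7 and 722 in ada2b and did not pass the test (adjusted p = 0.173). TAF9, TAF10 and TAF12 did not pass either (adjusted p = 0.535, 0.992 and 0.17).
Among 9 other histone acetyltransferase genes, HAF2 was higher in ada2a, at 2.76. Its values were low, with means of 32.4 in ada2a and 6.41 in ada2b. HAC12, HAG5 and HAC1 were lower in ada2a, at -0.48, -0.41 and -0.40.

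The wild type shows on which side each mutant lay. Both mutants are compared with the same Col-0 libraries, so the values are set side by side only. Across the 3636 genes that were at least 2-fold higher in ada2a, the median log2 fold change against Col-0 was 0.35 in ada2a and -1.39 in ada2b. Across the 1241 genes that were at least 2-fold lower, it was -0.60 in ada2a and 0.81 in ada2b. Against Col-0, 15.1% of tested genes were higher and 14.5% lower in ada2a, and 23.5% were higher and 28.1% lower in ada2b.

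**Figure D1:**
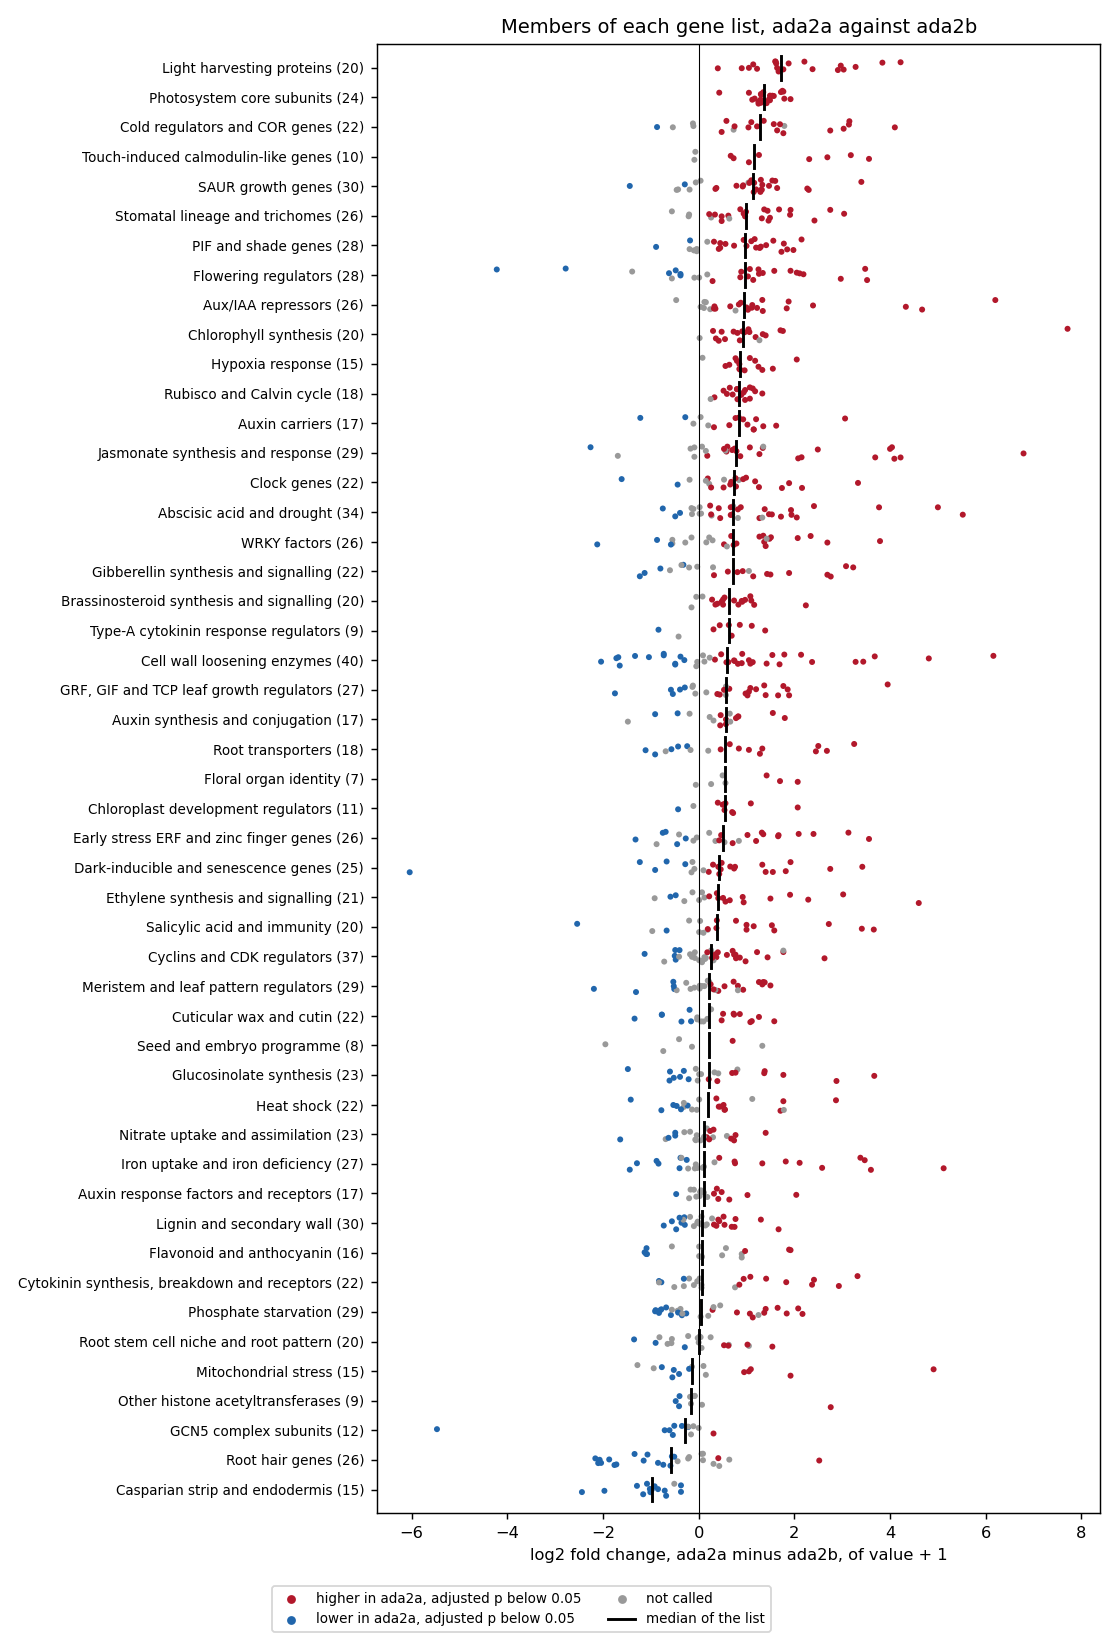
Log2 fold change of value + 1, ada2a minus ada2b, for the tested members of each gene list, with 1 point per gene and a black bar at the list's median. Red points are higher and blue points lower in ada2a at an adjusted p below 0.05, grey points did not pass, the number of tested members is in parentheses, and 6 members listed at 0 in every library of 1 mutant are not drawn. Light harvesting proteins stand at the top with a median of 1.72, and the Casparian strip and root hair lists at the bottom with -0.98 and -0.58.

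Nearly all measured genes of the photosynthetic apparatus were higher in ada2a. The markers of green shoot tissue given above are members of the photosynthesis and chloroplast regulator lists, so they add no separate observation. All 20 light harvesting genes (median 1.72), all 24 photosystem core genes (median 1.36) and 17 of 18 genes of Rubisco and the Calvin cycle (median 0.85) were called higher, and 0 were lower. LHCB2.3 was at 9395, 10289 and 9793 in ada2a, against 471, 511 and 603 in ada2b, a difference of 4.22 ± 0.10 (adjusted p = 5.0e-24). LHCB3, an antenna protein of photosystem II, was at 163164, 170338 and 156493 in ada2a, against 19229.9, 18995 and 22038 in ada2b (3.03 ± 0.09, adjusted p = 9.4e-22). The libraries of each mutant stayed close to one another while the mutants were many-fold apart. The 3 LHCB2 genes are near-identical copies, so their separate values depend on how reads were shared between them. Core subunits differed less: PSAD-2, the ferredoxin-docking subunit of photosystem I, was at 27033, 29597 and 27681 in ada2a against 7912, 7732 and 9122 in ada2b (1.77 ± 0.08, adjusted p = 4.6e-17), and PSBQ-2 of the oxygen-evolving complex differed by 1.92 ± 0.10 (adjusted p = 1.4e-16). In the Calvin cycle, SBPASE, which regenerates the carbon acceptor, was at 23940.0, 25360.5 and 22476 in ada2a against 12683, 10644 and 13535 in ada2b (0.97 ± 0.08, adjusted p = 2.8e-11). CP12-3, a redox linker protein, had 388, 418 and 389 in ada2a and 356, 316 and 332 in ada2b and did not pass (adjusted p = 0.0747). Together these 3 lists made up 12.4% to 12.9% of the column total in ada2a, 5.19% to 6.46% in ada2b, 7.28% to 7.54% in gcn5 and 13.9% to 14.1% in Col-0.

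Chlorophyll synthesis and chloroplast regulators followed with smaller medians. Of 20 chlorophyll genes 18 were higher in ada2a (median 0.93) and 0 lower. PORA, which reduces protochlorophyllide in the light in young tissue, was at 1565, 1639 and 1598 in ada2a, against 6.28, 6.56 and 7.17 in ada2b, a difference of 7.71 ± 0.23 (adjusted p = 9.4e-22). PORA was at 12.7, 24.7 and 45.7 in gcn5 and at 1174, 1436 and 965 in Col-0, so ada2b lay far below the wild type (-7.26, adjusted p = 5.9e-21), while ada2a did not pass against it (0.44, adjusted p = 0.151). Its homologue PORB differed by only 1.40 ± 0.09 (adjusted p = 3.6e-14). HEMA1, the glutamyl-tRNA reductase that opens the pathway, was at 10077, 9880.1 and 11571 in ada2a, 3139, 3138 and 3313 in ada2b and 6119, 5862 and 6681 in Col-0 (1.71 ± 0.09, adjusted p = 4.1e-16). Of 11 chloroplast regulators, 9 were higher and HY5, a light-signalling bZIP factor, was lower (-0.43 ± 0.12, adjusted p = 0.00188), and with column totals 5 were higher and 2 lower. CGA1, a GATA factor, was at 121, 145 and 99.1 in ada2a against 21.4, 16.9 and 59.3 in ada2b (2.07 ± 0.31, adjusted p = 1.5e-06). GLK1, which switches on antenna genes, was at 3988, 4218 and 3147 in ada2a and 2620.1, 2565 and 2579.6 in ada2b, and both mutants lay below the 9379.7, 8725 and 9521 of Col-0.

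**Figure D2:**
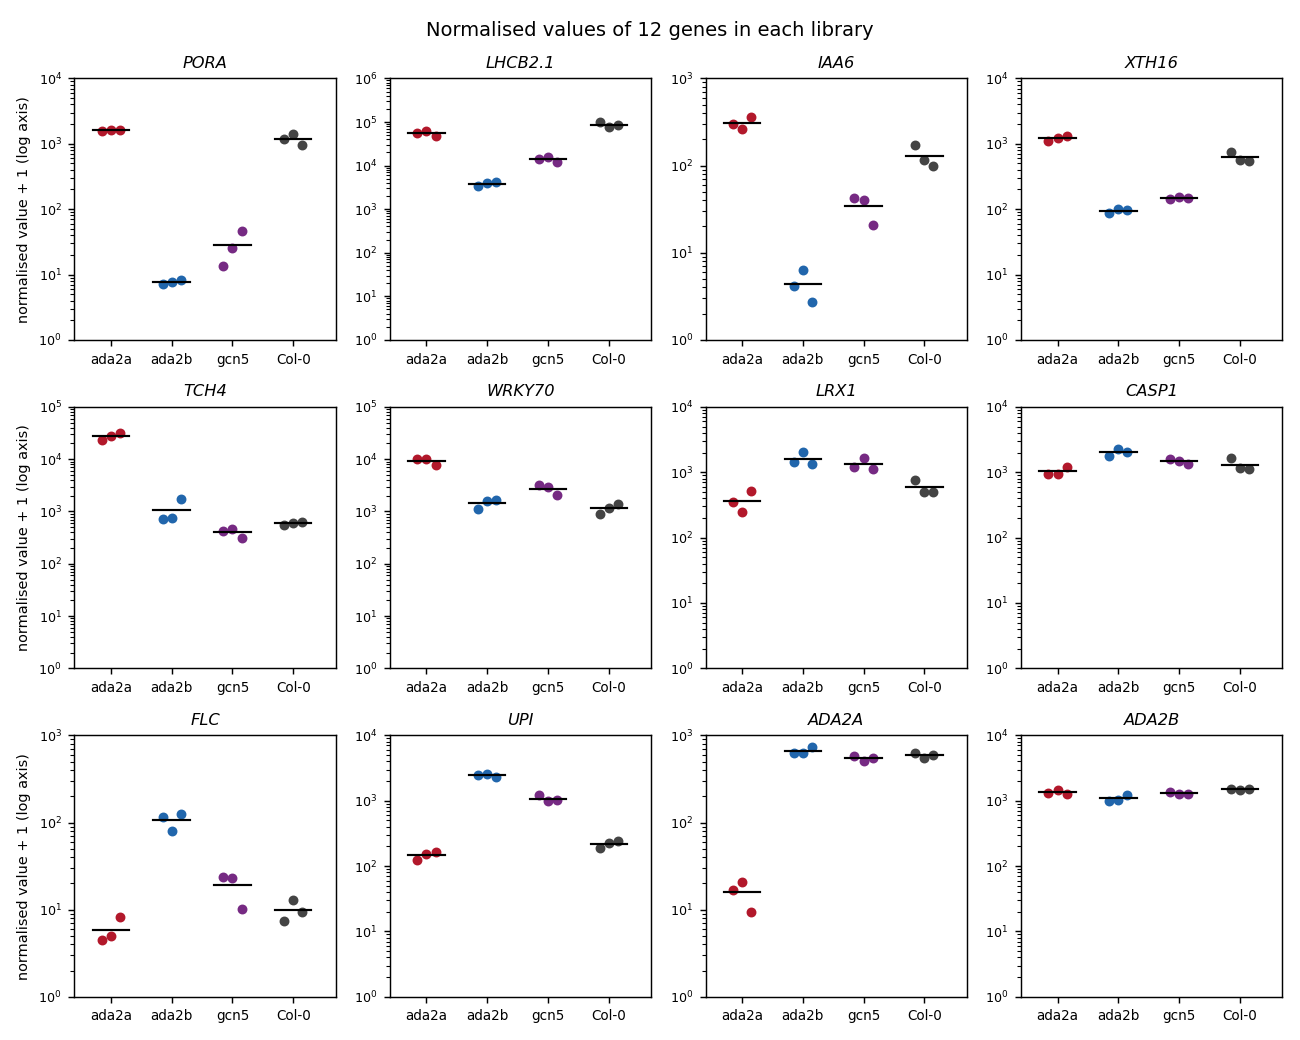
Normalised value + 1 on a log axis for 12 genes in ada2a, ada2b, gcn5 and Col-0, with 1 point per library and a bar at the mean of the 3. In PORA, LHCB2.1, IAA6 and XTH16 the ada2b libraries are lowest, in TCH4 and WRKY70 the ada2a libraries are highest, and in LRX1, CASP1, FLC and UPI the ada2b libraries lie above those of ada2a.

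Auxin genes were mostly higher in ada2a. Aux/IAA proteins are short-lived repressors that auxin destroys, and 19 of 26 were higher, 0 lower and 7 not called (median 0.94), against 15 and 4 with column totals (median 0.60). IAA6 was at 299, 262 and 358 in ada2a, against 3.12, 5.39 and 1.70 in ada2b (6.20 ± 0.27, adjusted p = 5.5e-18), and at 169, 115 and 97.2 in Col-0. IAA29, which also responds to shade, was at 503, 586 and 325 in ada2a against 15.7, 15.1 and 20.7 in ada2b (4.67 ± 0.23, adjusted p = 6.3e-17). The response factors that these repressors bind were less shifted: of 17 response factor and receptor genes, 7 were higher and ARF4 was lower, and with column totals 3 were higher and 9 lower, the median of 0.11 turning to -0.23. ARF11 led them with 1722, 1846 and 1771 in ada2a against 441, 408 and 452 in ada2b (2.04 ± 0.09, adjusted p = 1.6e-17).

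Carriers and growth genes of auxin were also mostly higher. Of 17 carriers, 12 were higher and 2 lower (median 0.84), or 10 and 4 with column totals. The influx carrier LAX1 was at 2863, 3099 and 3030.4 in ada2a, against 339, 316 and 432 in ada2b (3.06 ± 0.10, adjusted p = 1.3e-20). The efflux carriers PIN7 and PIN4 were higher by 0.93 and 1.15, whereas PIN2, the carrier of the root epidermis, was at 403, 397 and 568 in ada2a against 861, 1441 and 932 in ada2b (-1.22 ± 0.20, adjusted p = 6.2e-06). Of 30 SAUR genes, small auxin-induced regulators of cell expansion, 22 were higher and 2 lower (median 1.13), with SAUR23 at 2.27 ± 0.17 and SAUR6 at -1.44 ± 0.17. In auxin synthesis and conjugation, 9 of 17 were higher and 2 lower (median 0.57), or 5 and 4 with column totals (median 0.22). YUC5, a flavin monooxygenase that makes auxin, was at 166, 159 and 239 in ada2a, 69.9, 61.3 and 33.3 in ada2b and 53.8, 32.0 and 38.0 in Col-0, whereas YUC4 had 4.74, 8.96 and 7.22 in ada2a and 33.5, 11.3 and 23.3 in ada2b and did not pass (adjusted p = 0.0943).

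Of the other growth hormones, gibberellin and brassinosteroid genes and the type-A cytokinin response regulators were mostly higher in ada2a. Genes of cytokinin synthesis, breakdown and receptors had a median near 0. LOG1, which activates cytokinin, was at 1221, 1269.7 and 1288 in ada2a against 111, 113 and 156 in ada2b (3.32 ± 0.11, adjusted p = 1.2e-20) and the oxidase CKX4, which breaks it down, was higher by 2.93 ± 0.15. The list of 22 had 9 higher and 3 lower, and with column totals 7 and 8, its median of 0.06 turning to -0.28. Of 9 type-A response regulators, which damp the cytokinin signal, 7 were higher and ARR3 was lower (median 0.63). With column totals 3 were higher and 1 lower (median 0.28). Of 22 gibberellin genes, 12 were higher and 4 lower (median 0.71), or 11 and 8 with column totals (median 0.37). The DELLA repressor GAI was at 2845, 2644 and 2686 in ada2a against 1052, 936 and 902 in ada2b (1.50 ± 0.07, adjusted p = 6.9e-17), and the inactivating oxidase GA2OX2 at 278, 365 and 478 against 33.7, 33.2 and 48.7. The receptor GID1B and the last biosynthetic enzyme GA3OX1 were lower, at -0.80 ± 0.11 and -1.13 ± 0.28. Brassinosteroid genes had 17 of 20 higher and 0 lower (median 0.64), or 10 higher and 3 lower with column totals (median 0.30), among them the synthesis enzymes DWF1 at 1.10 ± 0.07 and DWF4 at 1.08 ± 0.09 and the factor BES1 at 0.74 ± 0.06.

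Wall genes were divided. Of 40 genes for wall loosening, 23 were higher and 12 lower in ada2a (median 0.60). XTH16 was at 1097, 1220.0 and 1304 in ada2a against 85.2, 99.3 and 95.7 in ada2b (3.68 ± 0.13, adjusted p = 5.2e-20). TCH4 was at 22891, 27980.5 and 32122 in ada2a, against 712, 749 and 1739.6 in ada2b (4.81 ± 0.26, adjusted p = 7.4e-16), and at 546, 601 and 631 in Col-0. EXO, which promotes cell expansion, was at 11218, 10971 and 13181 in ada2a, 976, 1135 and 1583 in ada2b and 629, 496 and 556 in Col-0. For TCH4 and EXO both mutants were above the wild type, TCH4 by 5.53 in ada2a and 0.72 in ada2b (adjusted p = 2.9e-16 and 0.0203) and EXO by 4.39 and 1.11 (adjusted p = 4.5e-18 and 2.5e-06). For XTH16 the low group was ada2b (Col-0 at 756, 574 and 546). On the other side, EXPA7 of root hairs was at 259.5, 263 and 498 in ada2a against 1216, 1559 and 1243 in ada2b (-2.04 ± 0.19, adjusted p = 1.7e-10), XTH14 was lower, at -1.68 ± 0.16 and EXPA18 at -1.72 ± 0.21. The expansin EXP1 was lower in ada2a (5432, 5361 and 5971 against 14824, 14880.2 and 12553 in ada2b), with Col-0 near the level of ada2b (12896, 12779 and 11661).

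The lists of early stress genes had medians above the wild type in both mutants. Of 10 touch-induced calmodulin-like genes, 8 were higher in ada2a and 0 lower (median 1.15), and the medians against Col-0 were 1.30 in ada2a and 0.24 in ada2b. TCH3, a calcium sensor, was at 8216, 8899.9 and 10414 in ada2a, 1122, 1374 and 1825 in ada2b and 348, 520.5 and 474 in Col-0 (2.69 ± 0.13, adjusted p = 8.7e-17). CML38 was at 1816, 2059 and 2454 in ada2a, 169, 174 and 186 in ada2b and 201, 153 and 179 in Col-0, so ada2b lay within the wild-type range there.
Of 26 early ERF and zinc finger genes, 13 were higher and 5 lower (median 0.50), with medians against Col-0 of 1.86 in ada2a and 1.36 in ada2b. The counts became 9 and 6 with column totals (median 0.16), and 14 and 3 without the third ada2b library (median 0.65). DREB26 was at 2522, 2587 and 2953 in ada2a, 326, 258 and 339 in ada2b and 123, 96.4 and 120.0 in Col-0, and ERF6 at 3213, 3704 and 3979.7 in ada2a, 1001, 821 and 1792 in ada2b and 169, 111 and 174 in Col-0. ERF4, a repressor, was lower in ada2a (1340.1, 1382 and 1262 against 1868, 1694 and 3134 in ada2b, -0.69 ± 0.16, adjusted p = 4.7e-04). Of 26 WRKY factors, 14 were higher and 3 lower (median 0.71), or 13 and 5 with column totals. WRKY70, a regulator of salicylic acid responses, was at 9983, 10110.0 and 7579 in ada2a against 1104, 1581 and 1634 in ada2b (2.69 ± 0.19, adjusted p = 3.9e-13), and 896, 1150.2 and 1416 in Col-0. WRKY6, a factor of phosphate and defence responses, was lower in ada2a (-0.87 ± 0.10).

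Genes of the defence hormones were mostly higher in ada2a. Of 29 jasmonate genes, 20 were higher and CYP94B3, which inactivates the hormone, was lower (-2.26 ± 0.26, adjusted p = 1.1e-08), with a median of 0.79, and with column totals 18 were higher and 5 lower (median 0.45). JAZ7, a repressor of the pathway, was at 142, 201 and 248 in ada2a, 4.31, 0 and 0 in ada2b and 17.0, 13.2 and 13.7 in Col-0. The lipoxygenase LOX4 was at 1726, 1579 and 1762 in ada2a, 50.8, 69.8 and 201 in ada2b and 197, 145 and 223 in Col-0 (4.22 ± 0.33, adjusted p = 3.3e-12). VSP2, a storage protein and output gene, was at 5314, 5386 and 4732 in ada2a against 346, 204 and 888 in ada2b, with Col-0 (4949, 4301 and 6295) at the level of ada2a. Salicylic acid and immunity genes had 12 of 20 higher and 2 lower (median 0.38, 0.03 with column totals), with NPR3, a receptor of the hormone, at 1.15 ± 0.09 and the flagellin-responsive kinase FRK1 at -2.54 ± 0.57. PR1, the usual output marker, had 0.433, 13.9 and 29.7 in ada2a and 1.24, 50.9 and 7.58 in ada2b, which overlap (adjusted p = 0.923). Of 21 ethylene genes, 13 were higher and 2 lower (median 0.41), a split that became 9 and 7 with column totals (median 0.07), with the synthase ACS4 at 209, 210.0 and 217 in ada2a against 11.2, 15.4 and 2.39 in ada2b and the receptor ETR1 lower, at -0.59 ± 0.08.

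Of the abiotic stress lists, those of cold, abscisic acid and hypoxia were mostly higher in ada2a. Of 22 cold genes, 16 were higher and LTI30 was lower (median 1.29): GolS2, which makes galactinol, was at 1539, 1488 and 1633 in ada2a against 87.9, 85.5 and 95.8 in ada2b (4.10 ± 0.13, adjusted p = 5.5e-21), and the dehydrin LTI30 at 768, 908 and 1091 against 1667, 1659 and 1693. The cold regulators CBF4 and CBF2 did not pass (adjusted p = 0.0661 and 0.0892). Of 34 abscisic acid genes, 21 were higher and 3 lower (median 0.71), or 17 and 8 with column totals (median 0.42). CYP707A2, which breaks the hormone down, was at 298, 301 and 257 in ada2a against 7.02, 8.89 and 8.04 in ada2b (adjusted p = 2.6e-19), and RD29B, an output gene, at 889, 1071 and 775 against 5.81, 19.9 and 53.1. Of 15 hypoxia genes, 14 were higher and 0 lower (median 0.87), but ADH1, alcohol dehydrogenase, had 9401, 10006 and 9074 in ada2a and 8236, 10819 and 8093 in ada2b and did not pass (adjusted p = 0.504). Heat shock genes were divided, with 9 of 22 higher and 6 lower, and 3 and 8 with column totals, their median of 0.19 turning to -0.15. HSFB2A was at 806, 785 and 857 in ada2a against 189, 198 and 364 in ada2b, whereas the chaperone Hsp70b was at 182, 225 and 180.5 in ada2a against 554, 468 and 556 in ada2b. Of 25 dark-inducible and senescence genes, 16 were higher and 5 lower (median 0.43), a split that became 9 and 8 with column totals (median 0.09), and this list held the largest fall among genes with a symbol: the beta-glucosidase DIN2 was at 16.2, 10.9 and 29.8 in ada2a, 1208, 1219.7 and 1215 in ada2b, 501 ± 73.6 in gcn5 and 20.7 ± 15.3 in Col-0. SEN1 went the other way (5790.4, 6121 and 6507 in ada2a against 1098, 580.4 and 1189.9 in ada2b, 2.75 ± 0.20, adjusted p = 7.6e-13).

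Light signalling, clock and flowering genes were mostly higher in ada2a. Of 28 genes of phytochrome-interacting factors and shade, 21 were higher and 2 lower (median 0.97), or 17 and 6 with column totals. PIF4, which drives elongation, was at 8790.3, 8200.4 and 7783 in ada2a against 2734, 2605 and 3065 in ada2b (1.56 ± 0.08, adjusted p = 8.2e-17), and the photoreceptor gene PHYD was at 639, 478 and 602 against 965, 1085 and 1127 (-0.89 ± 0.13, adjusted p = 9.9e-07). Of 22 clock genes, 15 were higher and 2 lower (median 0.73), or 12 and 4 with column totals. The morning gene CCA1 was at 233, 222 and 216 in ada2a against 19.6, 31.1 and 15.8 in ada2b (3.33 ± 0.22, adjusted p = 1.1e-13), and both lay below the 1742, 888 and 1756 of Col-0. Its partner LHY had 35.5, 35.8 and 31.0 in ada2a and 37.5, 4.06 and 37.1 in ada2b, so the spread of ada2b covered it (adjusted p = 0.15). RVE2, a related factor, was lower in ada2a (1205, 1235 and 943 against 3323, 3256 and 3735 in ada2b), and Col-0 was lower still at 595, 852 and 869. The labels give no hour of harvest, and clock genes move with the hour.

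Flowering regulators had 17 of 28 higher and 6 lower in ada2a (median 0.96), or 14 and 9 with column totals. FLC, the MADS-box repressor of flowering, was at 3.54, 3.98 and 7.18 in ada2a, 116, 79.8 and 125 in ada2b, 18.0 ± 7.55 in gcn5 and 8.95 ± 2.73 in Col-0 (-4.22 ± 0.67, adjusted p = 3.3e-06). Of genes that FLC is known to repress, SOC1 was at 3093, 3091 and 2427 in ada2a against 621, 433 and 1062 in ada2b (2.11 ± 0.18, adjusted p = 2.7e-11), FT, the mobile floral signal, was higher by 2.05 ± 0.28 (adjusted p = 3.1e-07) and its partner FD by 2.97 ± 0.26 (adjusted p = 5.0e-11). FUL, which marks the floral transition, was at 189, 199 and 145 in ada2a, 12.4, 14.6 and 18.0 in ada2b and 36.3, 62.0 and 63.0 in Col-0. A part of FLC in the levels of SOC1, FT and FD was not tested. Other genes of the FLC clade differed less: FLM was lower, at -0.48 ± 0.09, and MAF4 did not pass (adjusted p = 0.0825). Among 7 floral organ genes, SEP4, SEP3 and SHP1 were higher and 0 lower.

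Stomatal and trichome genes were mostly higher in ada2a. Of 26 such genes, 21 were higher and 0 lower (median 0.98), or 14 and 2 with column totals (median 0.64), and the medians against Col-0 were 0.10 in ada2a and -1.10 in ada2b. FLP, a MYB factor that ends guard cell divisions, was at 554, 597 and 668 in ada2a against 106, 125 and 107 in ada2b (2.42 ± 0.11, adjusted p = 1.5e-17). FAMA, which fixes guard cell fate, was at 919, 943 and 1084 against 414, 347 and 311 (1.46 ± 0.10, adjusted p = 2.9e-13). The trichome inhibitor TCL2 was higher by 2.75 ± 0.17, while the trichome activator GL3 had 48.6, 31.8 and 23.8 in ada2a and 55.0, 44.2 and 50.1 in ada2b (adjusted p = 0.159).
Of 27 leaf growth regulators, 16 were higher and 5 lower (median 0.57), or 13 and 8 with column totals, and 16 and 1 without the second ada2b library. Among the TCP factors of leaf maturation, TCP10 was higher at 829, 827 and 748 in ada2a against 226, 254 and 283 in ada2b (1.66 ± 0.11, adjusted p = 7.7e-14) and TCP2 by 1.08 ± 0.08, while GIF1, a coactivator of cell proliferation, was lower, at -0.54 ± 0.17 (adjusted p = 0.00661). Among 29 meristem and leaf pattern genes, 12 were higher and 5 lower (median 0.22), or 6 and 9 with column totals (median -0.09). Of the YABBY genes of the lower leaf face, YAB5 was higher by 1.38 ± 0.09 and YAB2 by 1.50 ± 0.13, and the meristem gene STM was lower at 4.86, 14.9 and 8.26 in ada2a against 64.8, 23.0 and 51.1 in ada2b (-2.19 ± 0.64, adjusted p = 0.00368). Cell cycle genes had 17 of 37 higher and 5 lower (median 0.26), or 5 and 12 with column totals (median -0.08). Without 1 library, whichever it was, 12 to 14 were higher. The D-type cyclin CYCD1;1 was at 1266, 1155 and 1221 in ada2a against 188, 203 and 194 in ada2b (2.63 ± 0.11, adjusted p = 2.0e-18), and CYCD4;1 was lower, at -1.13 ± 0.19.

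Root hair and endodermis genes were lower in ada2a, against the general lean of the lists. Of 26 root hair genes, 15 were lower and 2 higher (median -0.58). LRX1 was at 347, 248 and 509 in ada2a against 1450.3, 2041 and 1337 in ada2b (-2.16 ± 0.22, adjusted p = 8.4e-10), with 755, 506 and 496 in Col-0. The wall proteins PRP3 and PRP1 were lower, at -1.76 ± 0.20 and -2.07 ± 0.24, and RSL4, the bHLH factor that sets hair length, at -2.10 ± 0.29 (adjusted p = 4.0e-07). The hair repressor GL2 had 906, 796 and 815 in ada2a and 841, 1024 and 1078 in ada2b and did not pass (adjusted p = 0.133). ETC1, a MYB factor that promotes hair fate in the epidermis, was higher at 40.6, 44.8 and 60.7 in ada2a against 4.41, 8.04 and 11.8 in ada2b.
The Casparian strip is a lignin ring that seals the endodermis, and 14 of 15 of its genes and those of suberin were lower in ada2a, with 0 higher (median -0.98). CASP1, its scaffold, was at 944, 953 and 1182 in ada2a against 1757, 2258 and 2068 in ada2b (-0.98 ± 0.15, adjusted p = 1.7e-06), with Col-0 at 1661, 1145 and 1107. PER64, the peroxidase of the ring, was lower, at -1.02 ± 0.16, and FAR5, a fatty acyl reductase of suberin, at -1.29 ± 0.17. The medians of this list against Col-0 were -0.23 in ada2a and 0.65 in ada2b. Stem cell and patterning genes of the root did not share the shift, with 4 of 20 higher, 3 lower and 13 not called (median 0.01), or 2 higher and 7 lower with column totals (median -0.31). The summed root markers given above overlapped between the mutants with PHO1 and were lower in all 3 ada2a libraries without it. CASP1, CASP2 and MYB36 are among those markers and also in this list, so the sum is no separate measure of root tissue. The part of root tissue in the lower endodermis genes was not tested.

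Transport and nutrition genes went both ways. Of 18 root transporters, 10 were higher and 5 lower (median 0.56), or 9 and 7 with column totals (median 0.21). NRT1.5, which loads nitrate into the xylem, was at 6601, 6513 and 7274 in ada2a against 1203, 1551 and 1029 in ada2b (2.45 ± 0.11, adjusted p = 1.1e-17), SKOR for potassium was higher too, and PHO1 for phosphate at 3449, 3071 and 3970.3 against 1334, 1417 and 1291. The sulfate transporter SULTR1;2 and the phosphate transporter PHT1;1 were lower, at -1.11 ± 0.13 and -0.91 ± 0.12.
Of 27 iron genes, 12 were higher and 7 lower (median 0.11, -0.24 with column totals). Several genes of iron uptake were many-fold higher. IRT1, the iron transporter, was at 1959, 1879 and 1816 in ada2a against 157, 146 and 254 in ada2b (3.38 ± 0.17, adjusted p = 2.2e-16), and the ferric reductase FRO2 at 729, 763 and 677 against 52.3, 77.2 and 65.3 (3.47 ± 0.20, adjusted p = 4.3e-15). The factor bHLH38 was higher by 3.60 ± 0.26 (adjusted p = 8.1e-13) and MYB10 by 5.12 ± 0.37. In Col-0, IRT1 stood at 1449, 1954 and 2296, at the level of ada2a. The coumarin exporter PDR9 and the proton pump AHA2, which serve the same uptake, were lower in ada2a, at -0.88 ± 0.10 and -0.84 ± 0.09, and the ferritin FER2 at -1.44 ± 0.35. Phosphate starvation genes were evenly split, with 10 of 29 higher and 10 lower (median 0.04), near the shares over all tested genes. The counts became 6 and 13 with column totals (median -0.30), and the lower count was 6 without the second ada2b library. The non-coding AT4 transcript was at 3999, 4505 and 6523 in ada2a against 1278, 1517 and 658 in ada2b, whereas the sensor gene SPX1 was at 2507, 2616 and 3063 against 4907, 5986 and 3628. Nitrate genes had 8 of 23 higher, near the share over all tested genes, and 4 lower (median 0.11), or 3 and 13 with column totals (median -0.24). The plastid glutamine synthetase GS2 was higher by 0.77 ± 0.10 and the cytosolic GLN1;2 lower, at -0.49 ± 0.08.

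In secondary metabolism the lists held genes of both directions. Glucosinolate genes had 9 of 23 higher and 7 lower (median 0.21), or 7 and 11 with column totals (median -0.13), near the shares over all tested genes. TGG2, a myrosinase that cleaves glucosinolates, was higher at 48500.2, 50873 and 51374 in ada2a against 3442, 3563 and 5026 in ada2b (3.67 ± 0.10, adjusted p = 2.0e-22), and MYB28 of the aliphatic branch by 1.37 ± 0.07. CYP83B1 of the indolic branch was lower at 3971, 3846 and 3919 against 10565, 13257 and 9210.5 (-1.48 ± 0.10, adjusted p = 1.3e-13), as was CYP79B2 at -0.91 ± 0.14. Flavonoid genes had 3 of 16 higher and 4 lower (median 0.07), or 3 and 7 with column totals (median -0.22): the repressor MYBL2 was higher by 1.92 ± 0.13, and the enzymes CHS and FLS1 were lower, at -1.13 ± 0.16 and -1.10 ± 0.15 together with their activators MYB12 and MYB111. Wax and cutin genes had 10 of 22 higher and 6 lower (median 0.22), or 8 and 8 with column totals (median -0.12) and 11 and 3 without the third ada2b library, with GPAT8 for cutin higher by 1.58 ± 0.09 and KCS6 for wax lower, at -0.77 ± 0.08. Of 30 lignin and secondary wall genes, 11 were higher and 7 lower (median 0.07), near the shares over all tested genes. With column totals the counts were 4 and 13 (median -0.27). The list was led by CAD5 at 1.67 ± 0.09 and LAC11 at -0.73 ± 0.10. Mitochondrial stress genes had 5 of 15 higher and 5 lower, near the shares over all tested genes. The dehydrogenase NDA1 was at 426, 428 and 407 in ada2a against 7.25, 9.60 and 30.2 in ada2b. NDA2 was at 391, 411 and 340.3 against 689.9, 677 and 586.

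**Figure D3:**
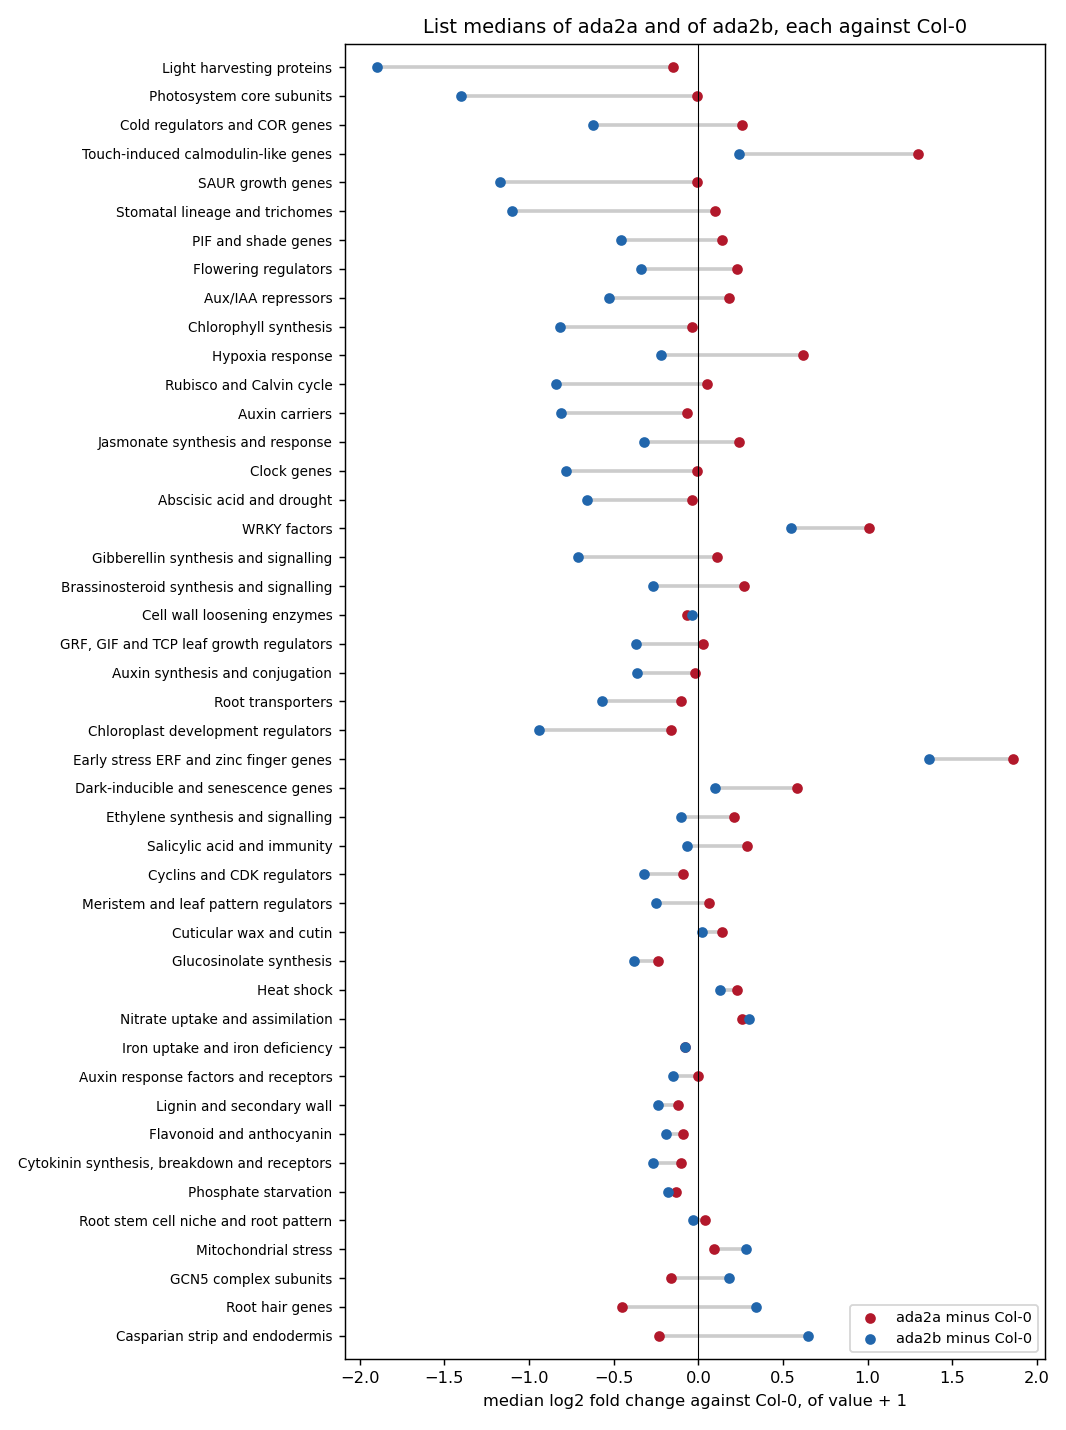
Median log2 fold change against Col-0 of the tested members of each list of at least 10 genes, in red for ada2a and in blue for ada2b, with lists ordered by the median of ada2a minus ada2b. The ada2b medians are -1.90 for light harvesting and 0.65 for the Casparian strip, where those of ada2a are -0.15 and -0.23, and the early ERF and zinc finger list lies to the right in both, at 1.86 in ada2a and 1.36 in ada2b, while the points of the iron list coincide at -0.08.

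Families were also formed from RefSeq product names, chosen after the values of all genes had been seen and given as description only. Genes of RNA handling in organelles stood on the lower side. Of 245 pentatricopeptide repeat genes, whose proteins bind organelle RNA, 15 were higher (6.12%) and 145 lower (59.2%) in ada2a, with a median of -0.54. With column totals 5 of these genes were higher and 200 lower (median -0.88). EMB175, a member needed for embryo growth, was at 213, 160.2 and 222 in ada2a, 467, 436 and 443 in ada2b and 439, 416 and 379 in Col-0, so that ada2a was the group away from the wild type. Of 31 genes of the mitochondrial transcription termination factor family, 3 were higher and 21 lower (median -0.58), and against Col-0 the median was -0.55 in ada2a and 0.05 in ada2b. Of 63 RNA helicases, 11 were higher and 39 lower (median -0.35), and of 43 proteasome genes 0 were higher and 29 lower, with a small median of -0.23. With column totals the helicases had 4 higher and 52 lower (median -0.69), and the proteasome genes 0 and 42 (median -0.57). RPT5B, an ATPase of the regulatory particle, was at 767, 828 and 831 in ada2a against 1511, 1541 and 1607 in ada2b. Ribosomal protein genes were balanced at 75 higher and 76 lower of 317, a split that became 36 and 210 with column totals, and the 4 higher ones with the smallest adjusted p, RPS9, emb2394, emb2184 and GHS1, encode proteins of the plastid ribosome. On the higher side were 20 of 27 GATA factors, 22 of 30 NPH3 family genes (median 0.70), 24 of 37 heavy metal transport genes (median 1.01), 30 of 44 MATE efflux carriers (median 1.01) and 61 of 104 bHLH factors (median 0.65). With column totals these medians stayed above 0, and the bHLH factors had 48 higher and 20 lower, against 61 and 9. Of 15 root hair specific products, 12 were lower and 0 higher (median -1.52).

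**Figure D4:**
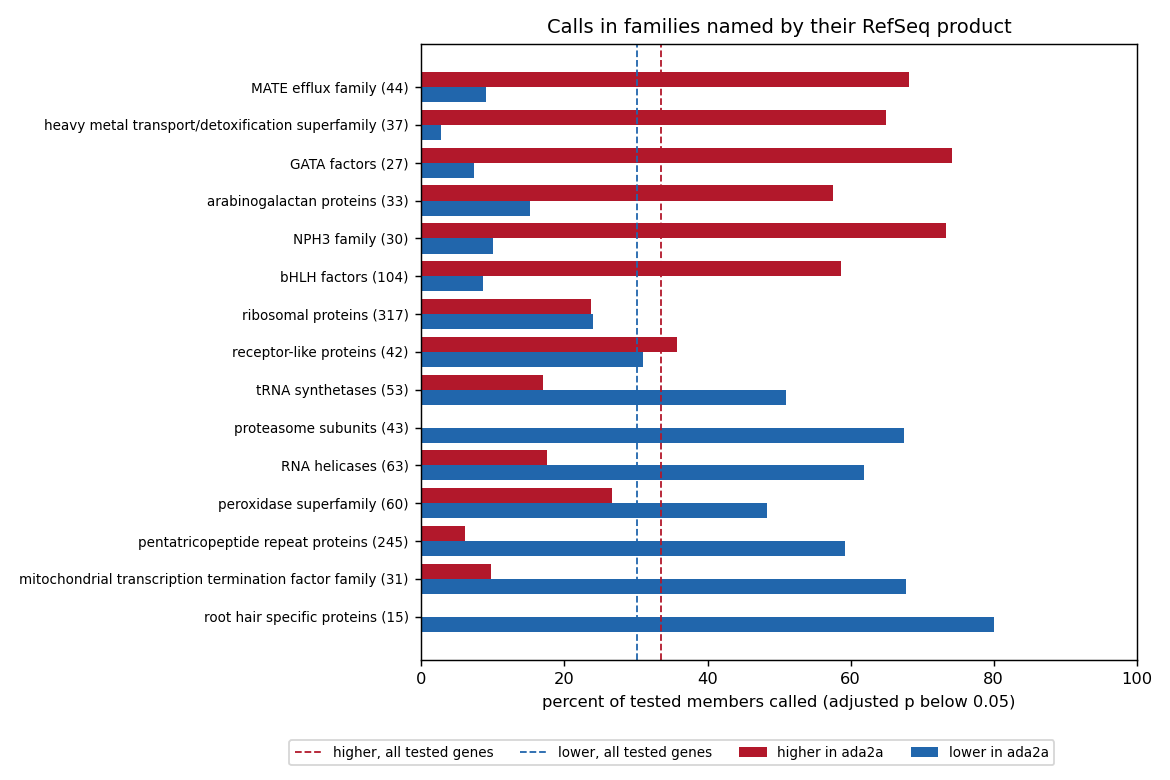
Percent of tested members called higher (red) and lower (blue) in ada2a for 15 families named by RefSeq product, with the number of members in parentheses and dashed lines at the shares over all tested genes (33.5% higher and 30.2% lower). Pentatricopeptide repeat genes reach 6.12% higher and 59.2% lower, and GATA factors 74.1% and 7.41%.

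The largest single differences lay mostly on the higher side. Besides PORA, JAZ7 and the genes listed at 0, the 12 largest rises among genes with a symbol included ARGAH2, an arginase, at 999.9, 991 and 861 in ada2a, 0, 0 and 5.60 in ada2b and 1226 ± 244 in Col-0. DOG1, the seed dormancy gene, was at 133, 198 and 211 in ada2a, 0.803, 0 and 0.904 in ada2b and 131, 83.4 and 101 in Col-0. PHE1, a MADS-box gene known from endosperm, was at 279.8, 352 and 355 in ada2a, 2.42, 3.09 and 0 in ada2b and 29.8, 45.7 and 45.2 in Col-0 (7.09 ± 0.31, adjusted p = 6.2e-18). The wild type lay between the mutants for PHE1, JAZ7 and SLAH1, an anion channel of the root, and passed the test against both. For PORA, DOG1 and PAP5, a purple acid phosphatase, its mean lay between theirs, but ada2a did not pass against it (adjusted p = 0.151, 0.19 and 0.195). DOT3 of leaf venation, CYP82C4 of coumarin metabolism and MRN1, marneral synthase, made up the rest, with log2 differences of 6.98 ± 0.28, 6.46 ± 0.50 and 6.46 ± 0.78. Against a group of values near 0 such folds depend on the pseudocount.

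The 12 largest falls included DIN2, ADA2A and FLC. UPI, a protease inhibitor, was at 122, 153 and 165 in ada2a, 2494, 2528 and 2310.4 in ada2b, 1077 ± 143 in gcn5 and 218 ± 27.0 in Col-0 (-4.06 ± 0.19, adjusted p = 1.9e-17). DOX1, an alpha-dioxygenase of fatty acids, was at 3356, 3324 and 5148 in ada2a against 27803, 31146 and 28343 in ada2b (-2.91 ± 0.14, adjusted p = 3.9e-17). CEP1, a cysteine protease of dying cells, was at 25.5, 42.8 and 21.7 in ada2a against 641, 911 and 544 in ada2b, and AGL62, an endosperm MADS-box gene, at 9.34, 11.9 and 13.4 against 179, 156 and 164. For UPI, DOX1 and CEP1 the gcn5 libraries lay between those of ada2a and ada2b. Also among them were HCS2, a biotin ligase (-5.30 ± 0.70), the glutathione transferase GSTU12 (-3.67 ± 0.47), COBL2 of the COBRA family (-3.06 ± 0.19) and the metal-chelate transporter YSL7 (-2.79 ± 0.44).

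Some genes were listed at 0 in all libraries of a mutant and at 50 or more in all of the other: 9 in ada2b and 1 in ada2a. NAS2, a nicotianamine synthase of metal transport, was at 262, 263 and 306 in ada2a and listed at 0 in all 3 ada2b libraries, with 11.1, 5.19 and 26.5 in gcn5 and 97.0, 126 and 273 in Col-0. NUDT24, a Nudix hydrolase, was at 227, 199 and 142 in ada2a and DMT2, a DNA methyltransferase, at 63.0, 55.7 and 57.7, and both were listed at 0 in ada2b and expressed in Col-0. AT1G33760 was at 407, 479 and 573 in ada2a, listed at 0 in ada2b, at 0, 0 and 1.75 in gcn5 and at 1.89, 0.0290 and 2.09 in Col-0. The locus listed at 0 in ada2a, AT2G11405, was at 147, 123 and 136 in ada2b and below 1 in every gcn5 and Col-0 library. FUS3, a regulator of seed maturation, was at 46.2, 53.7 and 57.7 in ada2a and listed at 0 in ada2b, with 3.57, 3.54 and 28.0 in Col-0. With 1 ada2a library below 50, FUS3 is not among the 9. A listed 0 can be a failed estimate, so no fold is given.

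Promoters were searched for 7 motifs on both strands in the 250 bases before the gene start of 21865 tested genes, with no test. Site II, the letters TGGGCC, was held by 7.04% of the genes at least 2-fold higher in ada2a, 14.0% of those at least 2-fold lower and 15.6% of all. The telo-box core AAACCCT was held by 3.82%, 7.66% and 6.40% of these sets. Both motifs are known from promoters of genes for translation and organelle proteins. The I-box GATAAG, known from light-regulated genes, went the other way at 14.1%, 9.02% and 12.4%. The G-box CACGTG was near the general share, with 8.03%, 6.93% and 7.18%, but 10 of 44 light harvesting and photosystem promoters held it (22.7%). The auxin response element, TGTCTC or TGTCGG, was in 16.3%, 12.9% and 14.8%, and in 20 of 56 promoters of the Aux/IAA and SAUR lists (35.7%). The W-box, TTGACC or TTGACT, was in 27.7%, 33.6% and 28.4%, and in 25 of 62 promoters of the touch, ERF and WRKY lists (40.3%). The evening element core AATATCT was in 12.4%, 9.67% and 10.1%. No motif contains another, though matches can overlap at their ends, and the members of a list share ancestry and so sequence.

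**Figure D5:**
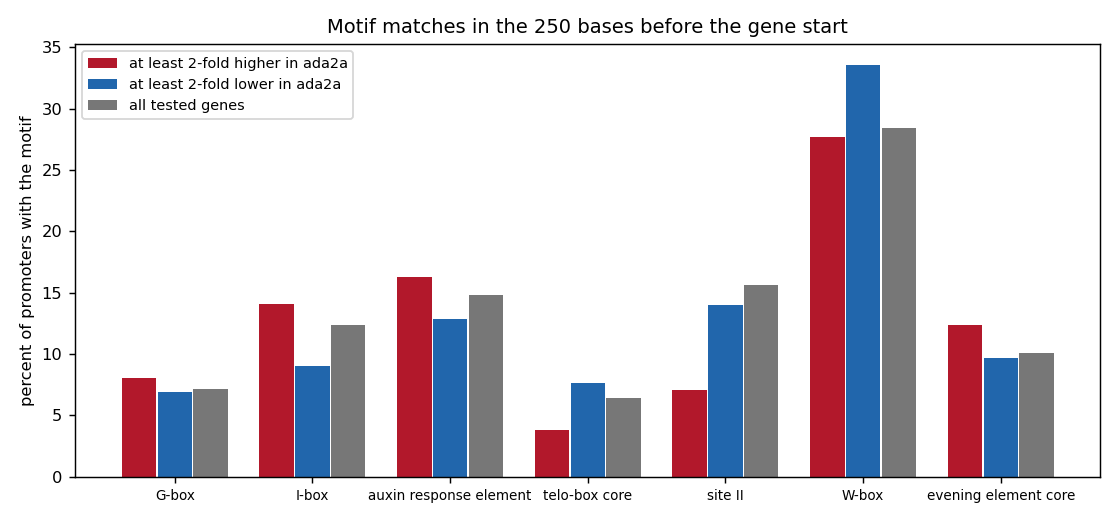
Percent of promoters that hold each of 7 motifs among genes at least 2-fold higher in ada2a (red), at least 2-fold lower (blue) and all tested genes (grey). Site II is in 7.04% of the promoters of higher genes, 14.0% of lower ones and 15.6% of all, whereas the I-box is in 14.1%, 9.02% and 12.4%.

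Position and length were examined for the sets as well. Within 1 Mb of ADA2A, 62.5% of 526 neighbours were called, with 12.4% higher and 4.56% lower by 2-fold or more, and around ADA2B 60.2% of 427 neighbours, with 19.4% and 3.51%. Over all tested genes the shares were 63.7%, 16.6% and 5.67%. Genes at least 2-fold higher had a median length of 1952 bp in the annotation, those at least 2-fold lower 2128 bp and all tested genes 2319 bp.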

How the data were processed

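The authors deposited 1 table of normalised signal per gene and library (30 libraries from 150-bp paired-end reads); its header does not describe the normalisation, and the values are not whole, so depth is unknown and no count model was used. The submitters' processing notes name the tools edgeR, HISAT2 and bcl2fastq and the build TAIR10; the part each tool played is not given in the sources used here. Values under 1e-06 were taken as 0. A gene was kept where 3 or more libraries reached a value of 10. Log2(value + 1) was fitted in limma 3.58.1 (R 4.3.3) with 1 term per genotype over all 30 libraries, which leaves 20 residual degrees of freedom, and p-values were adjusted over all tested genes by Benjamini and Hochberg. The pipeline was tested on simulated data.

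The gene lists and families were chosen with earlier results of these data known. List members were matched to RefSeq symbols of TAIR10.1. Named were the subunits of GCN5 complexes, the 12 largest rises and falls with a mean of at least 100 in the higher group, the members of each list with the smallest adjusted p (at most 4 in each direction) and at most 2 of its uncalled members, and genes listed at 0 in 1 mutant. A gene among the largest falls is not reported here. FT, FD, GL2, RSL4, bHLH38 and the named members of product families were chosen after their values were seen. Figures were drawn with matplotlib 3.10.9 from tables made in pandas 2.3.3 (Python 3.11.15).

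The alternatives were size factors from median ratios, division by column totals, no filter, a stricter filter at 50, a pseudocount of 16, a fit of only the 6 libraries, a replicate block and leaving out each library.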

Additional observations from a re-analysis of the deposited data

How the results depend on the processing

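Of the alternatives run, division by column totals moved the counts most: 11065 genes were then lower in ada2a, against 6610, and 2832 at least 2-fold lower, against 1241. It changed the sign of the median of 14 of 49 lists. Size factors from median ratios gave 7312 genes higher and 6610 lower, and the median of 0 lists changed sign. Leaving out each library in turn gave 6920 to 7029 genes higher and 5961 to 6288 lower. A fit of only the 6 libraries gave 6811 and 6212. With a replicate block, 7307 were higher and 6581 lower. The labels' replicate numbers did not pair the libraries: same-numbered libraries had deviations correlated at 0.052, -0.019 and -0.034, and no named gene changed its call under the block. Of named genes, ADA2B (-0.03), ADH1 (-0.26) and CP12-3 (-0.09) changed sign with column totals. Leaving out 1 library moved uncalled genes across 0: LHY ranged over -0.13 to 1.33 and PR1 over -1.28 to 1.10. Leaving out 1 library moved the count of lower genes in a list by at most 5, in root hair genes (10 to 15), and in phosphate genes it ranged over 6 to 13. The count of higher genes also moved by at most 5, in cell cycle genes (17 in the main fit, 12 to 14 without 1 library). For stomatal and trichome genes the higher count ranged over 17 to 21. The cause was not tested. The deposited values carry no counts, so no limit from depth can be given.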
